A study of Mus musculus with 13 samples.

Results

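The genes described here make sterols and fatty acids or regulate their making. There are 32 of them among the 35967 gene symbols of the expression table, and the rule that picks them uses their names and no measured value, though it was written with earlier results of these data known. By role they are 8 genes of the mevalonate pathway, 12 genes of the steps from farnesyl diphosphate to cholesterol, 4 genes of regulation and sterol transport, and 8 genes of fatty acid synthesis and desaturation. All 32 passed the filter on low values described below.

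The series asks how glomeruli respond after antibodies bind THSD7A, a podocyte protein that is an autoantigen in membranous nephropathy (MN). Wildtype Balb/c mice received an intraperitoneal injection of 2.0 mg of rabbit IgG. The paper states that only males were used in the MN model. Control mice received IgG from preimmune serum (n = 5), and MN mice received anti-THSD7A IgG and were killed at day 1 (n = 4) or day 5 (n = 4). Controls of both days form 1 group, and the day of each control is not given by the sources used here. Glomeruli were isolated with magnetic beads, and RNA of each mouse gave 1 library. The model is a passive transfer, so the mice received a foreign antibody and carried no altered gene.

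Cholesterol is built from acetyl-CoA through mevalonate, farnesyl diphosphate and squalene, and the intermediates before squalene also feed the lipid tails of prenylated proteins. When cells are short of sterol, the transcription factor SREBP-2, encoded by *Srebf2*, is released from the endoplasmic reticulum, binds sterol regulatory elements and raises transcription of most of these enzymes. SREBP-1, encoded by *Srebf1*, acts more on fatty acid synthesis. INSIG proteins hold both precursors back. Podocytes depend on membrane cholesterol at the slit diaphragm, the filter between their foot processes.

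The deposited values are TPM, a transcript abundance per length that is rescaled to a fixed total in each library. This unit does not keep the number of reads, so depth was unknown and counting error is not given. For the tests, TPM were divided by a scaling factor per library (0.954 to 1.04), 0.5 was added and log2 was taken, which understates the change of genes with low TPM. A gene was tested if 4 or more libraries held a TPM of 1 or more, which left 14322 genes. A gene was called when the Benjamini-Hochberg adjusted p of limma, a linear model that shares variance across genes, was under 0.05 and the absolute log2 fold change was above 0.5. Within groups, Spearman correlations between libraries lay between 0.974 and 0.988 across these genes, so no library stood apart on this measure. The 6 podocyte markers used to check the labelled tissue summed to 6481 to 8763 TPM over all 13 libraries. The summed TPM of 10 proximal tubule markers was 2394 to 8889 in control libraries, 4274 to 7697 at day 1 and 3152 to 3803 at day 5. The highest control value belonged to control library 5, which stood apart from the other controls at 2394 to 4054, and results that rest on it are also given without it.

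All 32 genes were expressed in the glomerular preparations of control mice, which also held the tubule transcripts given above. Mean control TPM ran from 3.16 ± 0.36 (SD, n = 5) for *Elovl6*, a fatty acid elongase, to 135 ± 8.03 for *Acly*, which makes cytosolic acetyl-CoA. Next to *Acly* stood the desaturase genes *Fads1* (92.2 ± 2.84) and *Scd2* (64.4 ± 5.82), followed by *Srebf2* (61.4 ± 6.34) and *Hmgcs1* (59.7 ± 7.36). The last 3 of these overlapped in their control libraries. *Hsd17b7*, a late sterol reductase, had the second lowest level at 6.17 ± 1.65. Levels of different genes are compared here in TPM, which is per length.

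At day 1, 0 of the 32 genes were called by limma, against 13 of 14322 genes tested (0.0908%). Without the limit on fold change the count was also 0, against 19 genes (0.133%). An unadjusted p under 0.05 was found for 9 of the 32, beside 12.6% of all genes tested at day 1. The fold change was above 0 for 26 of the 32, beside 49.2% of all genes tested, with a median log2 fold change of 0.17 beside -0.00. The 95% interval of the fold change lay wholly between -0.5 and 0.5 for 18 of the 32, beside 65.2% of all genes tested. Without control library 5 the calls rose to 218 of all genes tested (1.52%), and 0 of the 32 were among them. The median of the 32 was 0.08 with the proximal tubule markers as a covariate, 0.09 without control library 2 and 0.10 without day 1 library 2.

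At day 5, 1 of the 32 genes was called, *Scd2*, which fell. Calls covered 460 of all genes tested (3.21%), and 113 of them were lower (0.789%). With the adjusted p alone 2 of the 32 passed, *Scd2* and *Lbr*, against 6.12% of all genes tested. An unadjusted p under 0.05 was found for 5 of the 32, beside 20.1% of all genes tested at day 5. The fold change was above 0 for 26 of the 32, beside 49.3% of all genes tested, and this count was 20 without day 5 library 3 and 20 without scaling of the TPM. Their median log2 fold change was 0.09, beside -0.00 for all genes. The 95% interval lay between -0.5 and 0.5 for 24 of the 32, beside 61.3% of all genes tested. Both days were compared with the same 5 control libraries, so they are not independent of each other.

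**Figure D1:**
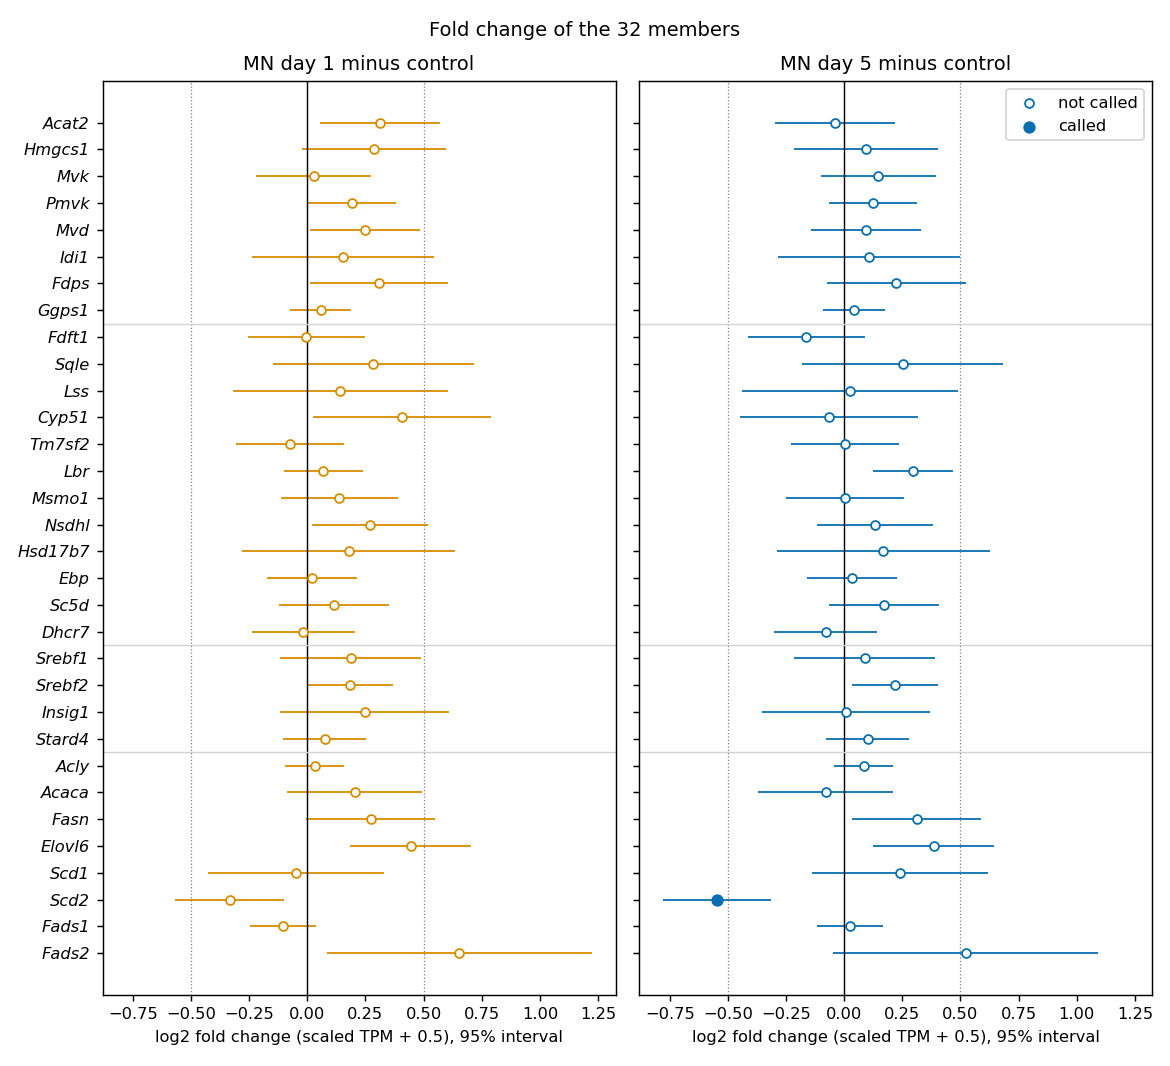
Log2 fold change of scaled TPM + 0.5 (x axis) for each of the 32 genes (y axis, by role) at day 1 and at day 5 against the control group, with 95% intervals from limma. Filled points are called genes; *Scd2* at day 5 is the 1 filled point, and 26 of the 32 points lie above 0 in each panel.

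The 8 mevalonate pathway genes all had a fold change above 0 at day 1, with a median of 0.22, a range of 0.03 to 0.31 and 4 unadjusted p under 0.05. None was called, and with the proximal tubule markers as a covariate 7 were above 0, with a median of 0.07 and 0 unadjusted p under 0.05. *Acat2*, which joins acetyl-CoA units at the head of the pathway, had TPM of 17.1, 16.7, 18.9, 16.8 and 22.6 in control libraries 1 to 5, 22.6, 22.7, 18.1 and 25.9 in day 1 libraries 1 to 4, and 17.4, 16.3, 19.3 and 16.6 in day 5 libraries 1 to 4. Day 1 library 3 lay within the range of the controls, and control library 5 reached the level of day 1 libraries 1 and 2. The log2 fold change was 0.31 at day 1 (SE 0.12, limma adjusted p = 0.331, and 0.0752 without control library 5) and -0.04 at day 5 (adjusted p = 0.903). The related gene *Acat3* shares 97.7% of the bases over the matched stretch of *Acat2* and was listed at up to 6.91 TPM, so how reads were split between them is uncertain.

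*Mvd*, the decarboxylase that makes isopentenyl diphosphate, had TPM of 10.1, 8.79, 11.4, 10.6 and 11.7 in the controls, 12.8, 12.9, 10.3 and 12.7 at day 1, and 11.2, 10.5, 12.1 and 10.1 at day 5. Of the day 1 libraries, 3 stood above every control and library 3 stood among them, while day 5 overlapped the controls. Its log2 fold change was 0.25 at day 1 (SE 0.11, adjusted p = 0.384) and 0.09 at day 5. An antisense gene on the other strand overlaps 20.5% of its exonic bases, and strand use in the counting is not given in the sources used here.

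*Hmgcs1*, the cytosolic HMG-CoA synthase, was 59.7 ± 7.36 TPM in controls, 71.4 ± 14.8 (SD, n = 4) at day 1 and 62.2 ± 8.83 at day 5, with a log2 fold change of 0.29 at day 1 (95% interval -0.02 to 0.60, adjusted p = 0.432). *Fdps*, which makes farnesyl diphosphate, was 48.6 ± 7.45, 58.6 ± 10.2 and 55.4 ± 9.02 TPM. Both groups of MN libraries overlapped the controls in each of these genes. *Ggps1*, which makes the geranylgeranyl donor for protein prenylation, had fold changes of 0.06 and 0.04 with an SE of 0.06. At day 5 the fold change of 7 of the 8 was above 0, with a median of 0.10 and a range of -0.04 to 0.22.

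Among the 12 genes after farnesyl diphosphate, 9 had a fold change above 0 at day 1 (median 0.13, or 0.07 without control library 5) and 9 at day 5 (median 0.03), with 0 called at either day. *Lbr* encodes the lamin B receptor, a nuclear envelope protein with sterol C14-reductase activity, and lies on the minus strand of chr1:181641631-181672984 (GRCm39). Its TPM were 31.2, 34.6, 30.3, 34.5 and 30.05 in the controls, 29.2, 36.4, 35.5 and 29.9 at day 1, and 39.3, 37.9, 36.6 and 40.4 at day 5. Every day 5 library stood above every control, as it did for 6.38% of all genes tested, and day 1 overlapped the controls. The day 5 log2 fold change was 0.30 (SE 0.08, adjusted p = 0.043), past the adjusted p and short of the fold limit of 0.5. Over the alternative settings its adjusted p ran from 0.0276 to 0.125. *Dnah14* overlaps 11.9% of the exonic bases of *Lbr* on the other strand. *Tm7sf2*, the other C14-reductase gene, had fold changes of -0.07 and 0.01.

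*Nsdhl*, which removes methyl groups from the sterol ring, had TPM of 19.2, 18.3, 21.7, 22.6 and 21.9 in the controls, 25.3, 24.6, 19.1 and 29.2 at day 1, and 22.9, 19.7, 23.9 and 22.4 at day 5. As with *Mvd*, day 1 libraries 1, 2 and 4 stood above every control and library 3 did not. The log2 fold change was 0.27 at day 1 (SE 0.12, adjusted p = 0.371) and 0.13 at day 5. *Cyp51*, the lanosterol demethylase, had the highest day 1 value of these 12 genes, 0.41 (SE 0.18, adjusted p = 0.378), and -0.06 at day 5. *Fdft1*, the squalene synthase that commits carbon to sterols, had -0.00 and -0.16, and *Dhcr7*, which makes cholesterol from its last precursor, had -0.02 and -0.08. The *Fdft1* exons share 24.8% of their bases with *Ctsb* on the other strand, and the *Cyp51* exons share 21.1% with *Akap9* on the other strand.

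All 4 genes of regulation and transport had a fold change above 0 at both days, and none was called. *Srebf2* (chr15:82031382-82093201, plus strand, GRCm39) had TPM of 61.0, 61.4, 62.3, 70.0 and 52.2 in the controls, 68.8, 70.4, 58.1 and 72.7 at day 1, and 67.8, 64.7, 80.3 and 66.0 at day 5. Only control library 4 among the controls reached the day 5 range, and both MN groups overlapped the controls. The log2 fold change was 0.18 at day 1 (SE 0.09, adjusted p = 0.406) and 0.22 at day 5 (SE 0.09, adjusted p = 0.174). *Insig1*, itself a target of SREBP, had TPM of 36.4, 25.4, 33.0, 34.3 and 26.6 in the controls, 44.4, 32.6, 25.2 and 43.4 at day 1, and 26.7, 26.5, 38.5 and 30.6 at day 5. It spread widely within each group, and its log2 fold changes were 0.25 (SE 0.17) and 0.01, the latter of either sign over the alternative settings. *Srebf1* had 0.19 and 0.09, and *Stard4*, a carrier of sterol between membranes, had 0.08 and 0.10.

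Of the 8 fatty acid genes, 5 had a fold change above 0 at day 1 and 6 at day 5. The called gene, *Scd2*, encodes a stearoyl-CoA desaturase that puts a double bond into saturated fatty acids, and it lies on the plus strand of chr19:44281613-44295303 (GRCm39). Its TPM were 68.6, 55.0, 62.7, 69.0 and 66.9 in the controls, 55.7, 43.0, 44.9 and 54.7 at day 1, and 39.9, 38.5, 53.9 and 40.4 at day 5. All day 5 libraries lay under all controls, as they did for 4.36% of all genes tested, with library 3 at 53.9 just under the lowest control at 55.0, and day 1 overlapped both other groups. *Scd2* fell by 0.55 at day 5 on the log2 scale (SE 0.11, 95% interval -0.78 to -0.31, adjusted p = 0.00814). The day 1 log2 fold change was -0.33 (SE 0.11, adjusted p = 0.263), and day 5 against day 1 gave -0.21 (SE 0.11, adjusted p = 0.399). *Scd2* was called at day 5 under every alternative setting, with adjusted p from 0.00274 to 0.035.

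In whole glomeruli, fewer cells of a type and less RNA per cell cannot be told apart. Beside the fall of *Scd2* at day 5, the 6 podocyte markers had a median log2 fold change of -0.21 with 0 called, the lowest being *Synpo* at -0.46 (adjusted p = 0.00197). The 6 proliferation markers were all called higher, with a median of 2.80, and the 10 proximal tubule markers had a median of 0.01, or 0.30 with 10 of 10 above 0 and 0 called without control library 5. The 6 glomerular endothelial markers were all above 0, with a median of 0.23, 3 unadjusted p under 0.05, 0 called and a lowest adjusted p of 0.0127. Their part in the result was not tested. The summed TPM of 6 markers of adipocytes, cells that are rich in desaturases, was between 0.55 and 7.32 in all libraries, with *Lep* at 0 in all but control library 3.

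*Scd1*, the neighbouring desaturase gene on chromosome 19, was not called at either day, with log2 fold changes of -0.05 (SE 0.18) and 0.24 (SE 0.18). No other transcript matched *Scd2* with 90% of bases alike along 50% or more of its length.

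*Elovl6*, which elongates palmitate to stearate (chr3:129326004-129432144, plus strand, GRCm39), had TPM of 2.63, 3.40, 2.95, 3.48 and 3.33 in the controls, 4.41, 4.02, 4.34 and 4.55 at day 1, and 4.14, 3.40, 4.71 and 4.49 at day 5. All day 1 libraries lay above all controls, as they did for 1.52% of all genes tested, and it was the 1 of the 32 to do so, while 0 of the 32 lay under all controls (1.98% of all genes tested). At day 5 library 2 was within the controls in TPM and above them, at 3.49 against 3.40, only after scaling. The log2 fold change was 0.45 at day 1 (SE 0.12, adjusted p = 0.215) and 0.38 at day 5 (SE 0.12, adjusted p = 0.0833), and neither was called. Without control library 5 the day 1 value was 0.48 (adjusted p = 0.0826). At these low levels the added 0.5 shrinks the fold change.

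*Fads2*, the delta-6 desaturase of polyunsaturated fatty acid synthesis, had the highest fold changes of the 32, 0.65 at day 1 (SE 0.26, adjusted p = 0.349) and 0.52 at day 5 (SE 0.26, adjusted p = 0.296). Its spread was wide, at 10.5 ± 3.65 TPM in controls, 16.0 ± 5.06 at day 1 and 14.4 ± 2.94 at day 5, so neither passed. *Fasn*, the fatty acid synthase, had log2 fold changes of 0.27 and 0.31 (adjusted p = 0.194 at day 5). *Acaca*, which makes malonyl-CoA, had 0.20 and -0.08, and the abundant genes *Acly* and *Fads1* stayed between -0.10 and 0.08 with SEs of 0.06 and 0.07.

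**Figure D2:**
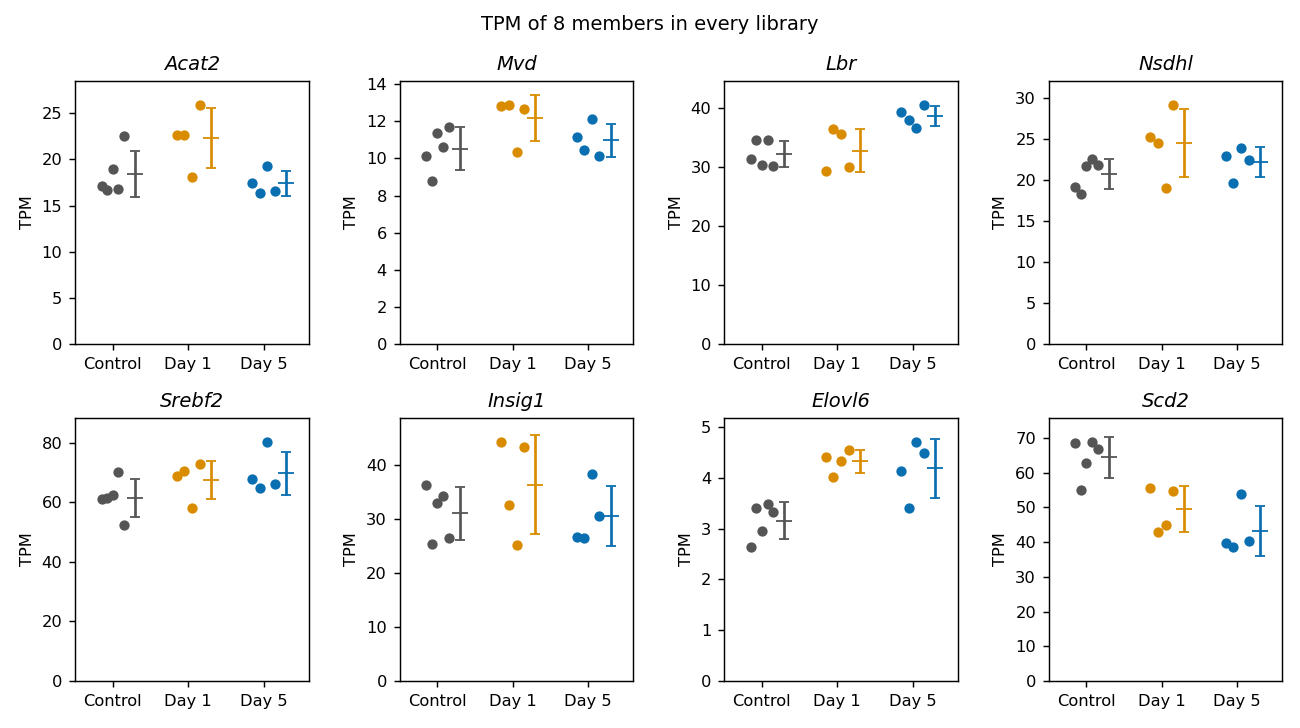
TPM (y axis, from 0) of *Acat2*, *Mvd*, *Lbr*, *Nsdhl*, *Srebf2*, *Insig1*, *Scd2* and *Elovl6* in control, day 1 and day 5 libraries (x axis). Points are libraries and bars are the group mean with SD; *Scd2* at day 5 (38.5 to 53.9) lies under all controls, and *Lbr* at day 5 (36.6 to 40.4) lies above them.

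Day 5 was also set directly against day 1. Among the 32 genes 0 were called by limma, against 259 of all genes tested (1.81%), and 3 had an unadjusted p under 0.05, beside 15.5% of all genes. The fold change was above 0 for 11 of the 32 (51.3% of all genes), with a median of -0.06. This count was 20 with the proximal tubule markers as a covariate, where the median was 0.03, 16 without day 1 library 4 and 6 without day 1 library 3. Between the days, proximal tubule markers were below 0 in 10 of 10 cases (median -0.77, 0 called) and the 7 tested markers of the loop, distal tubule and collecting duct in all 7 (median -1.22, 3 called lower). The lowest values were -0.47 for *Cyp51* (adjusted p = 0.237) and -0.35 for *Acat2* (adjusted p = 0.187). So no difference between the days passed for any of the 32, and their 95% intervals lay between -0.5 and 0.5 for 24 of them.

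The sterol genes were also followed as a set, library by library. The mean log2 level of the 20 mevalonate and later sterol genes, taken against the control mean, was 0.02, -0.22, 0.04, 0.14 and 0.01 in control libraries 1 to 5. It was 0.21, 0.24, -0.10 and 0.28 in the day 1 libraries and 0.10, 0.01, 0.20 and 0.01 in the day 5 libraries. Day 1 library 3 and control library 2 were the lowest of their groups, and the group means of 0.16 ± 0.18 (SD, n = 4) and 0.08 ± 0.09 (n = 4) stood beside a control SD of 0.13 (n = 5).

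**Figure D3:**
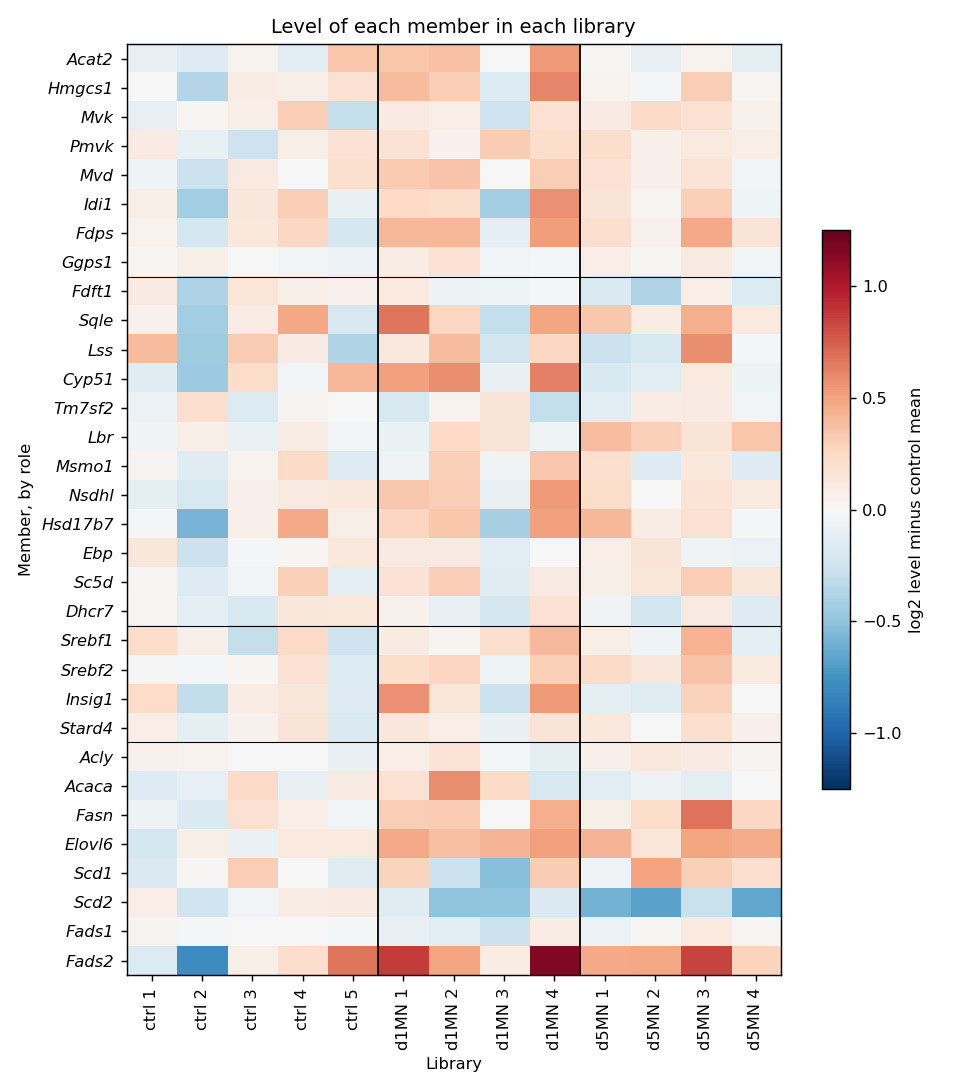
Log2 level minus the control mean (colour) of each of the 32 genes (y axis, by role) in each of the 13 libraries (x axis). Most sterol genes are low together in control library 2 and day 1 library 3, whose means are -0.22 and -0.10, and high together in day 1 library 4, at 0.28.

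After the group mean of each gene was removed, the 20 sterol genes moved together across the 13 libraries. The median Pearson correlation over their 190 pairs was 0.42 and 141 pairs were positive, beside a median of -0.00077 over all pairs of tested genes and 0.16 over the 28 pairs of fatty acid genes. The genes of a pair share their libraries, and 13 libraries in 3 groups underlie every value. The median was 0.30 with Spearman correlations, and the Pearson value was 0.16, with 125 positive pairs, without control library 2 and day 1 library 3, so it rested in large part on those libraries. *Idi1*, the isomerase of the isoprene unit, had a median correlation of 0.67 with the other sterol genes, *Hmgcs1* had 0.66 and *Hsd17b7* had 0.65. *Tm7sf2* at -0.47 and *Lbr* at -0.38, the C14-reductase genes, went the other way, and *Pmvk* had -0.02. The median SD within groups was 0.18 for the sterol genes and 0.17 for all genes tested. Single sterol genes ran from 0.08 (*Ggps1*) to 0.36 (*Lss*), with *Idi1* at 0.30, *Hmgcs1* at 0.24 and *Hsd17b7* at 0.34.

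The relation to *Srebf2* was then examined with a fit chosen after these values were seen, in which the log2 level of *Srebf2* was added to the groups for all other 14321 genes. The slope was above 0 for 17 of the 20 sterol genes, beside 51.5% of all genes, and 10 of the 20 had a slope above 0 with an unadjusted p under 0.05, beside 3.11% of all genes. The median slope was 0.78 for the sterol genes and 0.01 for all genes, where a slope of 1 means that both levels change by the same factor. After adjustment over all genes, none of the 31 genes besides *Srebf2* passed in limma, beside 0.00698% of all genes with a positive slope. The lowest adjusted p belonged to *Fdps*, with a slope of 1.59 (SE 0.23, adjusted p = 0.0624). Leaving out each library in turn gave *Fdps* slopes of 1.44 to 1.69 and adjusted p from 0.0286 to 0.686, past 0.05 in 1 of 13 cases. *Idi1* had a slope of 1.84 (SE 0.41, adjusted p = 0.304), or 1.41 to 2.19 when a library was left out. *Hmgcs1* had 1.04 (SE 0.44, adjusted p = 0.809), which ran from 0.41 without day 1 library 3 to 1.60 without control library 5.

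**Figure D4:**
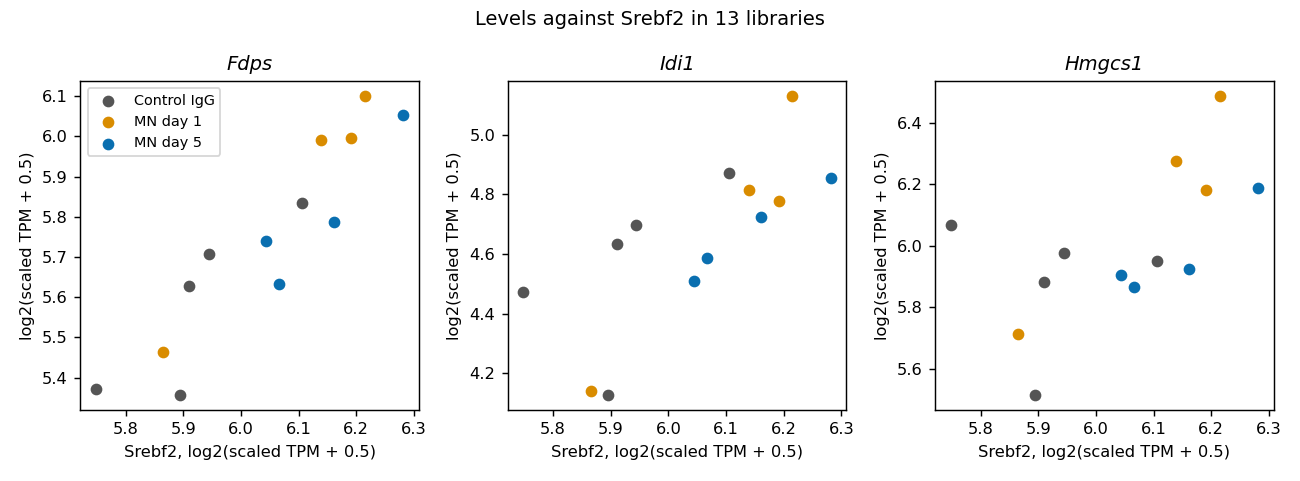
Log2 level of *Fdps*, *Idi1* and *Hmgcs1* (y axes, log2 of scaled TPM + 0.5) against that of *Srebf2* (x axis) in 13 libraries, coloured by group. The slopes within groups were 1.59, 1.84 and 1.04, the last running from 0.41 to 1.60 when a library was left out, and none of the 3 passed the adjusted p.

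SREBP-2 binds its elements next to NF-Y, a factor that reads CCAAT, so promoters were searched for both. Whether these letters have a part in the relation to *Srebf2* was not tested. RefSeq promoter windows of 300 bases (GRCm38.p6) matched 25 of the 32 genes and none were found for *Fdps*, *Stard4*, *Scd1*, *Fdft1*, *Sqle*, *Fads1* and *Scd2*. The letters TCACNCCAC, a form of the sterol regulatory element, were searched on both strands and stood in 1 of the 25, *Hmgcs1*, beside 1.44% of all 27025 genes with a window. The letters CCAAT on either strand stood in 21 of the 25, beside 41.1% of all genes. A match is a description of letters and not a bound site. Other forms of the sterol regulatory element were not searched, so a window without TCACNCCAC may still hold one. The promoter of *Hmgcs1* is shown because it holds both motifs, and that of *Srebf2* because it is the regulator itself. The sequences are from RefSeq, placed on GRCm39 by exact match, both on the plus strand, at chr13:120151637-120151886 and chr15:82031220-82031381, and both end before the annotated gene start. Capitals mark TCACNCCAC and CCAAT, the latter on the minus strand as ATTGG.
*Hmgcs1* promoter: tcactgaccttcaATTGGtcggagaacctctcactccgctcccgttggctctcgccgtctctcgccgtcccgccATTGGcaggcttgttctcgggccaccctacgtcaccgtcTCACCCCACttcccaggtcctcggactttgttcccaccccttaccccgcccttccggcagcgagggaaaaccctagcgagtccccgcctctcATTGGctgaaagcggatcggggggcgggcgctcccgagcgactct
*Srebf2* promoter: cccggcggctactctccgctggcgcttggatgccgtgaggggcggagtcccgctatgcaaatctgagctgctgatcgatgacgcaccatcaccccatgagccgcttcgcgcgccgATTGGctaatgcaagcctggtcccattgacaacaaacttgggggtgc
The *Hmgcs1* stretch holds 1 match of TCACNCCAC between 3 matches of CCAAT, and the *Srebf2* stretch holds 0 and 1.

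Tubule markers differed between libraries, and some of these genes differed with them. At day 1 all 10 had a fold change above 0, from 0.64 to 0.94, with a median of 0.75, 8 unadjusted p under 0.05 and 0 called, and without control library 5 the median was 1.02 and 9 of the 10 were called higher. The 7 tested markers of the loop, distal tubule and collecting duct were also all above 0 (0.41 to 1.49, median 0.73), with 1 called (*Pvalb*, named after its value was seen) and 3 called without control library 5. In a fit with groups and the mean log2 level of these markers, also chosen after the values were seen, 402 of 14312 genes passed with a positive slope (2.81%), and 2 of the 32 did so. Without control library 5, 97 genes passed with a positive slope and 4 of the 20 sterol genes passed, against 1 with it. *Fads2* had a slope of 0.80 (SE 0.14, limma adjusted p = 0.00557) and *Cyp51* had 0.50 (SE 0.11, adjusted p = 0.0221).

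*Fads2* had TPM of 8.79, 5.66, 10.6, 11.7 and 15.5 in the controls, 18.1, 13.5, 10.5 and 22.03 at day 1, and 13.1, 13.5, 18.7 and 12.1 at day 5. *Cyp51* had 11.4, 9.34, 14.95, 12.4 and 16.4 in the controls, 17.7, 18.2, 11.7 and 19.3 at day 1, and 10.4, 11.0, 14.1 and 12.0 at day 5. In both genes control library 5, with the most tubule marker, was the highest control and control library 2, with the least, was the lowest. Leaving out each library gave *Fads2* adjusted p from 0.00464 to 0.0586 and *Cyp51* from 0.0176 to 0.151, with *Cyp51* no longer past 0.05 without control library 2 or control library 5, and *Fads2* not without control library 2. The slopes were 1.27 for *Fads2* and 0.82 for *Cyp51* without control library 5, and between 0.69 and 0.85 and between 0.43 and 0.52 without any other library. Without both control library 5 and day 1 library 1, *Fads2* (1.28, adjusted p = 0.0345) and *Sqle* (1.01, adjusted p = 0.0474) passed and *Cyp51* (0.84, adjusted p = 0.089) did not. In that fit 14 of the 20 sterol genes had a positive slope with an unadjusted p under 0.05, beside 6.24% of all genes. With all libraries it was 5 of the 20, beside 8.57%. The slope of *Srebf2* was 0.35 in that fit (adjusted p = 0.319) and -0.00 with all libraries. Whether the sterol genes follow *Srebf2* apart from the tubule markers was not tested.

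**Figure D5:**
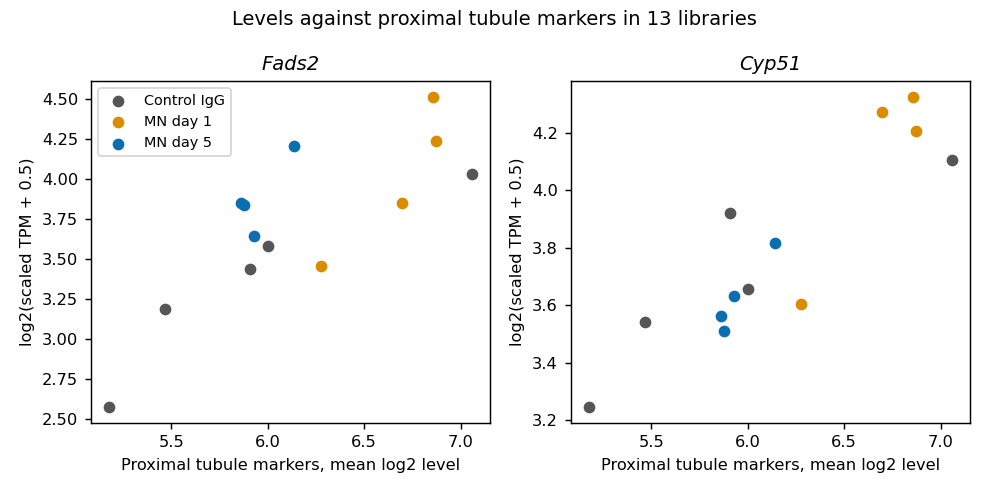
Log2 level of *Fads2* and *Cyp51* (y axes, log2 of scaled TPM + 0.5) against the mean log2 level of 10 proximal tubule markers (x axis) in 13 libraries, coloured by group. Both rise with the markers, with slopes of 0.80 and 0.50, and control library 5 lies far to the right of the other controls.

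Other genes of sterol metabolism were read from lists. Of 11 further genes of sterol synthesis and its control, 9 were tested and 0 were called at day 1, day 5 or between the days. An unadjusted p under 0.05 was found for 1 of them, at day 5, beside 20.1% of all genes. *Mbtps2*, the protease that frees SREBP, had 0.26 at day 5 (adjusted p = 0.185), and *Aacs*, which feeds ketone carbon into the pathway, also had 0.26 (adjusted p = 0.332).

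Of 15 genes of sterol efflux, oxidation, esterification and trafficking, 0 were called at day 1 (3 unadjusted p under 0.05, beside 12.6% of all genes) and 3 at day 5, beside 3.21% of all genes. *Abcg1*, a cholesterol efflux pump, had TPM of 8.13, 11.5, 8.74, 7.53 and 8.003 in the controls, 12.98, 8.62, 8.55 and 8.97 at day 1, and 11.9, 12.5, 13.8 and 14.8 at day 5. All day 5 libraries lay above all controls, as for 6.38% of all genes tested, and it rose by 0.61 on the log2 scale (SE 0.14, adjusted p = 0.0173). The call was lost without day 5 library 4 (log2 fold change 0.57, adjusted p = 0.0526).

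*Ch25h*, which makes 25-hydroxycholesterol, a sterol that blocks SREBP processing, had TPM of 2.44, 2.56, 1.71, 4.75 and 1.14 in the controls, 3.39, 3.17, 1.72 and 2.95 at day 1, and 5.30, 4.74, 5.11 and 8.17 at day 5. Control library 4 reached the lowest day 5 value, and the other controls lay below. It rose by 1.18 at day 5 (SE 0.29, adjusted p = 0.0294), a call that was lost in 6 of the fits leaving out 1 library (adjusted p 0.0535 to 0.0845), those without control library 1, 3 or 5 or day 5 library 1, 2 or 4.

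*Cyp27a1*, the mitochondrial sterol 27-hydroxylase, had TPM of 58.3, 53.4, 58.0, 67.2 and 68.6 in the controls, 42.1, 45.7, 56.9 and 56.1 at day 1, and 33.4, 36.1, 39.2 and 41.1 at day 5. Every day 5 library lay under every day 1 library, as for 5.25% of all genes tested, and under every control, as for 4.36%. It fell by 0.66 at day 5 (SE 0.10, adjusted p = 0.00166), with -0.24 at day 1 (adjusted p = 0.372) and -0.42 between the days (adjusted p = 0.0648). *Nceh1*, a cholesteryl ester hydrolase, had 0.31 at day 1 (adjusted p = 0.263) and *Abca1*, the other main efflux pump, had -0.41 at day 1 and -0.24 at day 5, neither of which was called. *Lcat* was not called either, with 5.83 ± 0.41 TPM in controls, 4.07 ± 2.18 at day 1 and 3.32 ± 1.34 at day 5. Its day 5 libraries (up to 4.66) also lay under all controls (from 5.51).

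The remaining lipid lists held no called gene when all libraries were used. Without control library 5, 1 gene of fatty acid and glycerolipid synthesis and 1 of fatty acid oxidation were called higher at day 1, and 1 of each lower between the days. In that setting calls in either direction covered 1.52% of all genes at day 1 and 3.05% between the days. Of 20 tested genes of fatty acid activation, elongation and glycerolipid synthesis, 4 had an unadjusted p under 0.05 at day 1, 4 at day 5 and 8 between the days. The shares of all genes tested were 12.6%, 20.1% and 15.5%. *Gpam*, which starts glycerolipid synthesis, had -0.43 at day 5 (adjusted p = 0.0345) and *Acsl4*, which activates arachidonate, had 0.28 (adjusted p = 0.0488), both short of the fold limit. *Acss2* and *Me1*, which supply acetyl-CoA and NADPH, had 0.34 and 0.52 at day 1 (adjusted p = 0.307 and 0.309).

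Of 17 tested genes of fatty acid oxidation, 3 had an unadjusted p under 0.05 at day 1, 0 at day 5 and 7 between the days. The shares of all genes tested were 12.6%, 20.1% and 15.5%. Between the days the median of the 17 was -0.21. Tubule markers were lower between the days as well, as given above, and with the proximal tubule markers as a covariate this median was -0.0060, with 1 unadjusted p under 0.05. *Hadh* had 0.29 at day 1 (adjusted p = 0.249), and *Acadvl*, which opens beta oxidation of long chains in mitochondria, had -0.20 (adjusted p = 0.0874) between the days. Of 10 genes that use isoprenoids, 0 had an unadjusted p under 0.05 at day 1, 1 at day 5 and 3 between the days, beside the same shares of all genes. *Rabggta*, a subunit of the enzyme that prenylates Rab proteins, had -0.22 at day 5 (adjusted p = 0.0912) and -0.32 between the days (adjusted p = 0.0399), short of the fold limit.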

How the data were processed

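Glomerular RNA of 13 Balb/c mice was sequenced, 1 library per mouse. The authors checked reads with FastQC 0.11.9, trimmed them with Trimmomatic 0.39, assigned them with kallisto 0.46.2 to GRCm39 transcripts and deposited TPM, 1 value per gene symbol and library. The authors tested counts with DESeq2, and counts were not used here, so the count model of the study could not be applied. Depth was unknown, and precision rests on the number of mice. Groups came from the sample labels.

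Scaling factors were medians of ratios over 15772 genes, applied before 0.5 was added and log2 taken. A single limma 3.58.1 fit (R 4.3.3, eBayes with trend) held all 3 groups. The Benjamini-Hochberg adjustment ran over 14322 genes for each contrast. No pair of libraries held identical values. The procedure was tested on simulated data.

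The members and lists were chosen with earlier results of these data known. Values in every library were given for called members and for those with the lowest p in each role, at least 2 a role. Of the other lists, the called genes and some of those with the lowest p were named, and others are not reported here. Overlaps and copies were taken from GENCODE transcripts of GRCm39 with BLAST+ 2.17.0, and promoters from RefSeq. Figures used matplotlib 3.10.9 (Python 3.11.15). Alternatives covered the pseudocount, scaling, filter, trend, weights, samples in the fit, a tubule covariate, the replicate number as a block and leaving out each library.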

Additional observations from a re-analysis of the deposited data

Results flagged for a closer look

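Each of the 32 genes was searched in each group for a library far from the others of its group, and 3 of 96 gene and group combinations showed one. Chance flags about 1 in 20 groups, which would be 4.8 here. *Mvd* was 10.3 TPM in day 1 library 3, while the other day 1 libraries lay between 12.7 and 12.9. *Srebf1* was 48.4 TPM in day 5 library 3, while the others lay between 32.05 and 34.5. *Scd2* was 53.9 TPM in day 5 library 3, while the others lay between 38.5 and 40.4, and without this library its day 5 log2 fold change was -0.63. No difference between the days was called for any of the 32 genes.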

How the results depend on the processing

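The count of called genes among the 32 was within 1.5 times its value in 74 of 75 alternatives, and the exception was 2 at day 5 (*Scd2* and *Lbr*) with the adjusted p alone. Their median fold change kept its sign and moved by less than the spread between mice in 71 of 72, while day 5 against day 1 turned from -0.06 to 0.026 with the tubule covariate. That spread was the SD of the mean level of the 32 across control libraries. It is larger than the medians at day 5 and between the days, so this limit is loose for them. Leaving out a library gave medians of 0.09 to 0.20 at day 1, 0.06 to 0.13 at day 5 and -0.15 to -0.01 between the days. Over all genes, calls ran from 338 to 484 at day 5 and from 153 to 437 between the days, where the main count was 259. At day 1 they ran from 0 (tubule covariate) to 218 (without control library 5), where the main count was 13. The replicate block gave 149 at day 1, and it too takes out control library 5. Of 792 values for single genes, 766 kept their sign and call, and none of the 15 that changed sign was called. *Acat2* at day 5 ran from -0.081 to 0.046 when a library was left out, *Insig1* at day 5 from -0.084 to 0.065, and between the days *Srebf2* from -0.044 to 0.072 and *Elovl6* from -0.094 to 0.017. *Insig1* at day 5 was -0.027 without scaling and -0.060 with array weights. Between the days the tubule covariate gave 0.034 for *Mvd*, 0.040 for *Nsdhl* and 0.018 for *Elovl6*, and array weights gave -0.00011 for *Srebf2*. *Ch25h* at day 5 was not called without the filter (adjusted p = 0.0631), and between the days *Abcg1* was called without day 1 library 1 (0.56, adjusted p = 0.039). The causes were not tested. Fold changes under about 0.25 log2 were within the median half-width of the 95% interval.

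Replicate numbers gave no sign of pairing, with same-numbered libraries correlating at -0.06 to 0.09 and 0 pairs above 0.1. Differently numbered libraries were not compared, so this check cannot exclude pairing. Only the control group has a library numbered 5, so a block for the number also takes control library 5 out of the fold changes. The block fit is therefore not separate from leaving that library out. With the number as a block, *Scd2* at day 5 was -0.52 (adjusted p = 0.0287), *Lbr* 0.29 (adjusted p = 0.123), *Abcg1* 0.60 (adjusted p = 0.0866), *Acat2* 0.047 and *Insig1* -0.032, and *Ch25h* between the days was 0.93 (adjusted p = 0.0426).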
